A study of Mus musculus with 36 samples.

Results

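The comparison described here is that of 24 h with 4 h of exposure in cells of BV-2, a microglial line of the mouse that was immortalised in culture, which received lipopolysaccharide (LPS) together with cannabidiol (CBD). Its members are the 6 libraries labelled LPS with CBD, 3 at each time, out of 36 libraries in the series, and all 17438 genes listed in the table of these 6 libraries. The study asked how CBD, dimethyl fumarate (DMF) and monomethyl fumarate act on activated microglia over time, by RNA-seq of polyadenylated RNA. Both groups held the same cell line with LPS at 600 ng/mL, a bacterial cell wall component that activates microglia, and CBD at 6 µM, a cannabinoid of the hemp plant dissolved in ethanol (EtOH), with vehicle at 0.2% and fetal bovine serum lowered to 0.1% just before treatment. The groups differ only in the length of exposure, so that the parts of LPS, CBD and low serum in a change between times cannot be told apart within the comparison. For that reason the same change was also measured in 6 libraries with LPS alone, 6 with the EtOH vehicle and no LPS, and 6 with LPS and DMF at 30 µM. The study dissolved DMF in dimethyl sulfoxide and LPS in water, and the labels name no solvent for LPS alone. Differences from LPS alone or from DMF therefore cannot tell CBD apart from its solvent. BV-2 is a single cultured line with no neighbouring brain cells, which limits it as a model of microglia in tissue.

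LPS is sensed by Toll-like receptor 4, which switches on NF-kB and interferon regulatory factors and gives an early wave of cytokine transcripts, followed by a later wave of feedback inhibitors, acute-phase proteins and interferon-induced genes. Cells under metabolic or protein-folding stress slow general translation and make more of the transcription factor ATF4, whose targets supply amino acids and include the stress factors Ddit3 and Trib3. Cholesterol made by the cell or released from lysosomes holds back the sterol synthesis genes, while lysosomal genes are raised when lysosomes are overloaded. Proliferating cells such as BV-2 carry high levels of DNA replication and mitosis transcripts, which are low in cells that have left the cell cycle.

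Depth was 15.6 M to 19.3 M reads assigned to genes per library, and values are read counts divided by the authors' size factors, called normalised counts here. Values are listed for replicates 1, 2 and 3 in that order. In a principal component analysis of the 1000 genes that varied most, PC1 took 87.8% of the variance and separated the times, and PC2, with 4.74%, set replicate 2 at -9.18 (24 h) and -10.4 (4 h) apart from replicates 1 and 3, which lay at -0.392 to 11.6. Of 20 microglial and macrophage markers 14 passed the filter on low values, 4 were too low and 2 were not listed. Those that did not pass were Sall1, Siglech, Gpr34, C1qa, C1qb and C1qc. Among those that passed, Csf1r (receptor for the survival factor CSF1) had means of 10899 at 4 h and 6428 at 24 h. Ptprc (the leukocyte antigen CD45) had 10672 at 4 h and 10858 at 24 h and Tyrobp (a signalling adaptor) 3259 at 4 h and 3216 at 24 h. P2ry12 and Tmem119, markers of resting microglia, were low, with means of 46.0 at 4 h and 46.0 at 24 h for P2ry12 and 46.4 at 4 h and 68.8 at 24 h for Tmem119. Of the 5 T cell markers none passed the filter, and the 5 markers each of neurons, astrocytes and fibroblasts together left Map2, Gfap and Dcn, with means of 152 at 4 h and 261 at 24 h for Map2, 16.0 at 4 h and 7.03 at 24 h for Gfap and 1.401 at 4 h and 10.95 at 24 h for Dcn. Of 3 oligodendrocyte markers tested 2 were higher and 1, Mbp, lower, with means of 1019 at 4 h and 746 at 24 h, and of 3 endothelial markers none was higher and 2 were lower, with summed values of 73.9 to 174 per library. Their part in the changes was not tested. The exons of Ddit3, Fth1, Ftl1, Slc48a1, Mt2, Ccl3, Nfkb2, Trem1, Hspa5, Hsp90ab1, Dnaja1, Ccnd1, E2f8, Rrm2, Kif20a, Slc16a3, H2-K1, Ctsd and Phyhd1 overlap another annotated gene over more than 20% of their bases, so that their counts are uncertain where reads could not be told apart.

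Between 4 h and 24 h the larger part of the transcriptome shifted. Of 11667 genes with a normalised count of at least 10 in 3 or more libraries, 7371 changed (63.2%; limma on log2 of the normalised count plus 1, Benjamini-Hochberg adjusted p below 0.05), of which 3690 were higher at 24 h (31.6%) and 3681 lower (31.6%). In 68.7% of tested genes each library of 1 time lay beyond all those of the other. Beyond an absolute log2 change of 1 the split was uneven, with 1252 genes higher (10.7%) and 805 lower (6.9%). The median change of all tested genes was 0.0051 on the log2 scale, against which the list medians below are to be read. For every called gene given below except Cdkn1a, the 3 libraries of 1 time all lay beyond the 3 of the other. Since so many genes changed, a list with about 63.2% of its members called, split evenly, lies at the background. In bulk RNA, fewer cells of a state and less RNA per cell cannot be told apart.

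**Figure D1:**
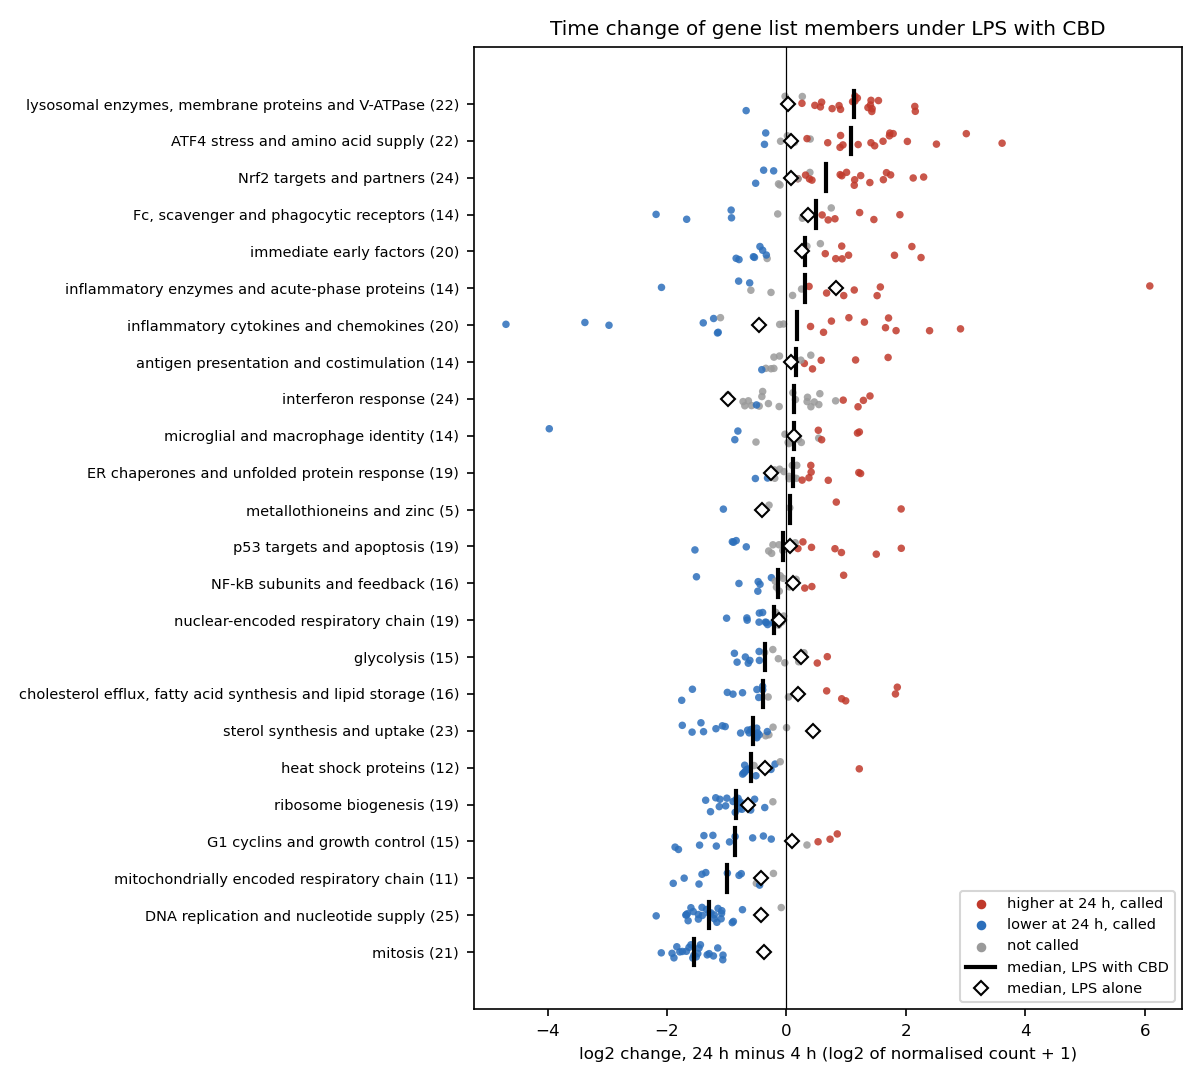
Log2 change from 4 h to 24 h (horizontal axis) of each tested member of 24 gene lists under LPS with CBD, coloured by call, with the list median as a bar, the median under LPS alone as a diamond and the number tested in brackets. The lysosome, ATF4 and Nrf2 lists lie to the right, and mitosis, DNA replication and the mitochondrially encoded genes to the left, while the diamonds of most lists lie nearer to 0.

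The stress genes under ATF4 were higher at 24 h, with 16 of 22 tested members higher, 2 lower and 4 not called and a list median of 1.07. Ddit3 (CHOP, a transcription factor of terminal stress) had normalised counts of 267, 225 and 219.8 at 4 h and 2538, 2542 and 3784 at 24 h, a 12.4-fold rise (log2 change 3.61, SE 0.153, adjusted p = 3.02e-07). Trib3, a pseudokinase induced by ATF4 and CHOP, gave 399, 440.1 and 482 at 4 h and 3732, 3036 and 3944 at 24 h (log2 change 3.01, SE 0.111, adjusted p = 1.73e-07). Aldh1l2 of mitochondrial folate metabolism gave 594, 512 and 644 at 4 h and 3510.1, 2882 and 3611 at 24 h (log2 change 2.51, SE 0.111, adjusted p = 3.49e-07). In these 3 genes every library at 24 h lay above every library at 4 h. Slc3a2, the shared heavy chain of several amino acid transporters, gave 6362, 5895 and 6175 at 4 h and 22677, 17753 and 38825 at 24 h, with replicate 3 well above the others at 24 h (log2 change 2.03, SE 0.226, adjusted p = 3.90e-05). Gpt2 (alanine aminotransferase) changed by 1.79 and Atf3, a stress-induced transcription factor, by 1.73, whereas Slc7a5 (a light chain that pairs with Slc3a2) stood at 5812 at 4 h and 5875 at 24 h (log2 change 0.02, adjusted p = 0.862) and Shmt2 of serine metabolism fell by 0.35 on the log2 scale. Under LPS alone the same list had a median time change of 0.07, and 13 of 22 tested members had a more positive time change with CBD than without, none a more negative one. Over all tested genes the time change differed from that under LPS alone in 31.9%, with 15.5% more positive and 16.5% more negative. For Ddit3 the LPS-alone libraries, scaled together with those of CBD, gave 235, 234 and 197 at 4 h and 330.4, 345 and 391 at 24 h (difference of log2 time changes 2.94, SE 0.207, adjusted p = 1.54e-06), and for Slc3a2 5609, 5578 and 5303 at 4 h and 5491, 5295 and 5778 at 24 h (difference of log2 time changes 2.02, SE 0.271, adjusted p = 1.13e-04).

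The promoter of Atf3 is shown because it carries the composite element bound by ATF4 with a C/EBP partner (searched as TGATGNAA on both strands), which 5 of 19 members with a promoter in the RefSeq table held. By windows of 250 bases before the start, 5 of 22 member windows (22.7%) and 3.45% of all 32851 windows held it. The Atf3 stretch lies at chr1:190915538-190915780 on the minus strand of GRCm39, outside annotated exons and within the span of a transcript of the gene that starts further upstream, with the match in capitals, read here on the opposite strand.
Atf3: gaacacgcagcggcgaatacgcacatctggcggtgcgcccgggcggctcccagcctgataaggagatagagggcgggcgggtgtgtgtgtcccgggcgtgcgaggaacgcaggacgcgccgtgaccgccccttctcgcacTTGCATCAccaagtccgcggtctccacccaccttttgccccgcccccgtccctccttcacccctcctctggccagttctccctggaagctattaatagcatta
A match is a description of the sequence and does not show that the factor is bound.

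The list of chaperones of the endoplasmic reticulum had 7 of 19 tested members higher, 2 lower and 10 not called, with a median of 0.12, against 31.6% of all tested genes in each direction. Dnajb9, a co-chaperone of stress signalling, gave 466, 471 and 479.9 at 4 h and 979, 918 and 1462 at 24 h (log2 change 1.21, SE 0.153, adjusted p = 8.62e-05), and Sel1l of the degradation machinery 2117, 2143 and 1956 at 4 h and 4530.5, 4963 and 5228 at 24 h (log2 change 1.24, SE 0.0766, adjusted p = 1.48e-06). Hspa5 (BiP, the main chaperone of this compartment) gave 25958, 27014 and 25335 at 4 h and 37889.6, 36846 and 54665 at 24 h (log2 change 0.70, SE 0.145, adjusted p = 0.002), whereas Dnajb11 fell by 0.52 on the log2 scale. Under LPS alone the list median was -0.26, and 11 of 19 time changes were more positive with CBD, none more negative, among them Dnajb9 (difference of log2 time changes 1.83, SE 0.206, adjusted p = 3.40e-05) and Hspa5 (difference of log2 time changes 1.03, SE 0.189, adjusted p = 0.00107). The list of heat shock proteins went the other way, with 1 of 12 tested members higher, 9 lower and 2 not called and a median of -0.59. It is mostly cytosolic but also counts the mitochondrial Hspd1 and Hspe1. Hsp90ab1, an abundant chaperone of the HSP90 family, gave 68690.1, 66221 and 66874 at 4 h and 43101, 41925 and 39973 at 24 h, Dnaja1 fell by 0.73 and Hsph1 by 0.71 on the log2 scale, while Hspa4l was the exception at 714, 752 and 671 at 4 h and 1475, 1689 and 1834 at 24 h (log2 change 1.22, SE 0.0934, adjusted p = 3.99e-06). Under LPS alone the heat shock list had a median of -0.35, and 2 of its 12 differences from LPS alone were called.

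Lysosomal genes rose together, with 19 of 22 tested members higher, 1 lower and 2 not called and the highest median of the 24 pathway lists, 1.13, against 0.03 under LPS alone. Gla, the lysosomal enzyme that cleaves terminal galactose from lipids, gave 753, 495 and 665 at 4 h and 2730.3, 2625 and 3035 at 24 h, a 4.38-fold rise (log2 change 2.15, SE 0.138, adjusted p = 1.75e-06). Gpnmb, a glycoprotein of stressed lysosomes, gave 1797, 1268 and 1751 at 4 h and 7318, 6729 and 7221 at 24 h (log2 change 2.16, SE 0.123, adjusted p = 1.17e-06), and Ctsd, an acid protease, 16682, 10384 and 14193 at 4 h and 38456, 35243 and 44723 at 24 h (log2 change 1.54, SE 0.163, adjusted p = 2.76e-05). All libraries at 24 h lay above those at 4 h for these 3 genes. Neu1 (a sialidase), Psap (a precursor of lipid-degrading cofactors) and Atp6v1a (a subunit of the proton pump) rose by 1.44, 1.42 and 1.41. Against these, Gusb, a glucuronidase, fell by 0.67 and Glb1, a galactosidase, had a change of -0.02 (adjusted p = 0.812). The 23 listed genes took 0.796% ± 0.106 at 4 h and 1.68% ± 0.0334 at 24 h (SD, n = 3) of the counted reads. The time change of 18 of 22 members was more positive than under LPS alone and none more negative. For Gla the LPS-alone libraries gave 883, 594 and 903 at 4 h and 730.0, 704 and 633 at 24 h (difference of log2 time changes 2.34, SE 0.228, adjusted p = 1.19e-05) and for Gpnmb 2081, 1504 and 2119 at 4 h and 1147, 1089 and 1155 at 24 h (difference of log2 time changes 2.90, SE 0.193, adjusted p = 1.04e-06). The CLEAR letters TCACGTGA, the element of the lysosomal regulators TFEB and TFE3, were found before the start of Gla, Ctsd, Mcoln1 and Atp6v1a, in 4 of 18 windows (22.2%) against 0.785% of all windows. Those 4 genes were all called higher, as were most of the other tested members.

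Sterol synthesis fell, with 0 of 23 tested members higher, 19 lower and 4 not called and a median of -0.55, while under LPS alone the median was 0.44 and all but 2 of the 23 differences were called, each more negative with CBD. Hsd17b7, an enzyme of the later steps, gave 1108, 1347 and 1065 at 4 h and 402, 454 and 324 at 24 h, a 2.98-fold fall (log2 change -1.58, SE 0.135, adjusted p = 7.45e-06). Idi1, which interconverts the isoprenoid building blocks, gave 813, 916 and 845 at 4 h and 346, 371 and 248 at 24 h (log2 change -1.43, SE 0.142, adjusted p = 1.88e-05). Stard4 (a sterol carrier) and Hmgcs1, an early enzyme of the pathway, fell by 1.39 and 1.18 on the log2 scale. Tm7sf2 stood at 207 at 4 h and 208 at 24 h. For Hmgcs1 the values were 2305, 3570.0 and 2498 at 4 h and 1224, 1408 and 1024 at 24 h with CBD, and 1997, 3029.8 and 1960.1 at 4 h and 3202, 3241 and 3177 at 24 h with LPS alone on the joint scale, so that the changes had opposite signs (difference of log2 time changes -1.67, SE 0.250, adjusted p = 2.47e-04).

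Hmgcs1 was also the 1 member of 16 with a promoter row that held the sterol regulatory element TCACNCCAC, which 1.05% of all windows carried. Its stretch lies at chr13:120151637-120151886 on the plus strand of GRCm39, across from exons of a long non-coding RNA on the other strand, with the element in capitals.
Hmgcs1: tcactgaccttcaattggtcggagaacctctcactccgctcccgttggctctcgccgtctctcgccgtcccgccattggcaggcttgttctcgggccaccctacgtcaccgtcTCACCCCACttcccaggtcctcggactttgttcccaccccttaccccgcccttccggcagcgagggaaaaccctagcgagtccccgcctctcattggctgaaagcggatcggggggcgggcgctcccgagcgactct
The other 15 members do not hold these exact letters within their windows.

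The list of cholesterol efflux, fatty acid synthesis and lipid storage had 5 of 16 tested members higher, 9 lower and 2 not called. Its median was -0.40, and 31.6% of all tested genes were called in each direction. Plin2, the coat protein of lipid droplets, gave 2298, 2221 and 2301 at 4 h and 7896, 7574 and 9333 at 24 h (log2 change 1.86, SE 0.0856, adjusted p = 4.36e-07), and Npc1, which moves cholesterol out of lysosomes, 952, 946 and 936 at 4 h and 3289, 3385 and 3379 at 24 h (log2 change 1.83, SE 0.0626, adjusted p = 1.73e-07). Npc1 and Plin2 at 24 h lay above all 4 h libraries, and under LPS alone their time changes were 0.37 and 0.05. Abca1, the exporter of cholesterol to apolipoproteins, fell, with 1207, 1567 and 1274 at 4 h and 352, 599 and 297 at 24 h (log2 change -1.75, SE 0.221, adjusted p = 8.52e-05), while its relative Abcg1 rose by 0.93. Fasn, the fatty acid synthase, gave 19769, 20944 and 15771 at 4 h and 6709, 6675 and 5524 at 24 h (log2 change -1.57, SE 0.120, adjusted p = 3.92e-06), and Elovl6 and Srebf1, the master regulator of fatty acid synthesis, fell by 0.99 and 0.73. Of 16 tested members, 5 had a more positive and 8 a more negative time change than under LPS alone.

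The list of Nrf2 targets and partners had 16 of 24 tested members higher, 3 lower and 5 not called, against the background of 31.6% in each direction, and a median of 0.66. It holds antioxidant and iron-handling genes and also counts Nfe2l2 (Nrf2 itself) and its regulators Keap1 and Bach1. Sqstm1 (p62, a cargo receptor of autophagy) gave 9707, 10066 and 9246 at 4 h and 46165, 41528 and 56019 at 24 h, a 4.95-fold rise (log2 change 2.30, SE 0.113, adjusted p = 6.13e-07). Hmox1, the haem-degrading enzyme, gave 3678, 4133 and 3762 at 4 h and 18242, 16495 and 15711 at 24 h (log2 change 2.12, SE 0.0828, adjusted p = 2.28e-07). The ferritin chains Fth1 and Ftl1 gave 69775, 50129.6 and 56727 at 4 h and 185751, 209348 and 192078 at 24 h for Fth1 and 18676, 13804 and 18499 at 4 h and 48509, 56022 and 51336 at 24 h for Ftl1, and Slc48a1, a haem transporter, rose by 1.397. In each of these the times did not overlap. Other classical targets did not pass the test: Nqo1 was near the filter at 9.56 at 4 h and 12.6 at 24 h, Txnrd1 (thioredoxin reductase) gave 6406, 6016 and 5865 at 4 h and 5726, 5396 and 5849.7 at 24 h (log2 change -0.11, adjusted p = 0.207), and Gclc of glutathione synthesis had a log2 change of 0.12 (adjusted p = 0.168). Txn1 (thioredoxin) fell by 0.51 on the log2 scale. Gclm, the partner subunit of Gclc, gave 974, 953 and 933 at 4 h and 1820.2, 1719.8 and 1907 at 24 h (log2 change 0.93, SE 0.0707, adjusted p = 3.90e-06), and Slc7a11, the cystine transporter that pairs with Slc3a2, 2540.1, 3157 and 2148 at 4 h and 4977, 5527 and 6656 at 24 h (log2 change 1.14, SE 0.144, adjusted p = 8.65e-05). Under LPS alone the list median was 0.07, and 12 of 24 time changes were more positive with CBD, none more negative. Together the 24 genes took 0.857% ± 0.0758 at 4 h and 2.29% ± 0.0929 at 24 h (SD, n = 3) of the counted reads.

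The window of Gclm is shown for its antioxidant response element (searched as TGACNNNGC), found in 6 of 25 member windows (24.0%) and 10.2% of all windows. It lies at chr3:122038956-122039125 on the plus strand of GRCm39, partly across from a long non-coding RNA on the other strand.
Gclm: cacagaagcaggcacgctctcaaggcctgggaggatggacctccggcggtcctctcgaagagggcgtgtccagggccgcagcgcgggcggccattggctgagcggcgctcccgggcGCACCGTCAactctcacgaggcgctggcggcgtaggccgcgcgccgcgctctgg
The members that held the letters were Gclm, G6pdx, Mafg, Nfe2l2, Prdx1 and Txnrd1, while the windows of Sqstm1, Fth1 and Ftl1 do not hold them.

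The metallothioneins Mt1 and Mt2, which bind zinc, rose by 0.84 and 1.92 on the log2 scale, with Mt1 at 16257, 13556 and 10834 at 4 h and 23616, 19409.5 and 29573 at 24 h. Under LPS alone their time changes were -0.78 and -0.60, and the differences were called (difference of log2 time changes 1.62, SE 0.219, adjusted p = 1.19e-04 for Mt1). The zinc importer Slc39a10 fell by 1.06, and the exporter Slc30a1 had a change of -0.29 (adjusted p = 0.103).

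The cytokines and chemokines separated into genes that were higher and genes that were lower at 24 h, with 10 of 20 tested members higher, 7 lower and 3 not called and a median of 0.18 (-0.46 under LPS alone). Il1b, an inflammasome-processed cytokine, fell 9.92-fold, with 1707, 3994 and 1869.7 at 4 h and 183, 439.7 and 140.4 at 24 h (log2 change -3.37, SE 0.412, adjusted p = 6.97e-05). Replicate 2 was the highest at both times, and each 24 h library lay below each 4 h library. Under LPS alone Il1b gave 1211, 3834 and 1421 at 4 h and 2089, 3239 and 2446 at 24 h, a log2 change of 0.44 (difference of log2 time changes -3.81, SE 0.643, adjusted p = 5.85e-04). Tnf, the prototype early cytokine, gave 8913, 7923 and 8525 at 4 h and 4106, 4437 and 2998 at 24 h (log2 change -1.15, SE 0.131, adjusted p = 4.41e-05), Il1a fell by 1.22, and Ccl20, a chemokine for lymphocytes, fell, with 107, 119 and 67.5 at 4 h and 6.31, 0 and 5.96 at 24 h. Under LPS alone the change of Ccl20 was -4.34, and the difference did not pass the test (adjusted p = 0.816).

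Among the chemokines that rose were Ccl7 and Ccl2, which attract monocytes, while Ccl22 fell by 2.97 on the log2 scale and Ccl9 had a log2 change of -0.11 (adjusted p = 0.544). Ccl7 gave 931, 406 and 509 at 4 h and 5502, 3683 and 4094 at 24 h, a 7.19-fold rise (log2 change 2.91, SE 0.263, adjusted p = 1.02e-05), and Ccl2 5991, 3704 and 4295 at 4 h and 16528, 14925 and 12177 at 24 h (log2 change 1.66, SE 0.169, adjusted p = 2.14e-05). Under LPS alone their log2 changes were -0.90 and -0.65, and the differences were called (difference of log2 time changes 3.82, SE 0.555, adjusted p = 2.01e-04 for Ccl7, difference of log2 time changes 2.31, SE 0.321, adjusted p = 1.47e-04 for Ccl2). Ccl3, Ccl4 and Csf1 likewise rose with CBD, by 0.75, 0.62 and 1.05, against -0.71, -0.65 and -0.65 with LPS alone. Il6 rose, with 33.5, 75.5 and 27.2 at 4 h and 202, 199.5 and 266 at 24 h (log2 change 2.40, SE 0.327, adjusted p = 1.40e-04), a change that did not pass the test of a difference from LPS alone (difference of log2 time changes 1.41, SE 0.525, adjusted p = 0.0547). Il1rn, the secreted antagonist of the interleukin 1 receptor, rose, with 4268, 4675 and 3640.4 at 4 h and 10493, 10599.8 and 9879 at 24 h (log2 change 1.31, SE 0.0946, adjusted p = 3.05e-06), against -0.16 under LPS alone. The agonist Il1b and its antagonist Il1rn thus moved in opposite directions in the same libraries, while Cxcl10, an interferon-driven chemokine, stood at 934 at 4 h and 916 at 24 h (adjusted p = 0.928).

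The Il6 promoter is printed for its kB element (GGGANTTTC), present in 4 of 18 windows of the cytokine list (22.2%), those of Il6, Csf1, Cxcl1 and Cxcl2, and in 0.941% of all windows. The stretch lies at chr5:30217862-30218111 on the plus strand of GRCm39, within an intron of a long non-coding RNA annotated on the other strand.
Il6: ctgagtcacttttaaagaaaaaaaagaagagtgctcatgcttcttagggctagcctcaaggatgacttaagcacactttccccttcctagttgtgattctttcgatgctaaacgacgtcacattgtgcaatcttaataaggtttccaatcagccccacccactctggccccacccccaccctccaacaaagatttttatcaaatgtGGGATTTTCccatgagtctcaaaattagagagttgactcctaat
The same list holds members without these letters in their windows that fell, such as Tnf and Il1b, and that rose, such as Il1rn.

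Among the inflammatory enzymes and acute-phase proteins, there were 7 of 14 tested members higher, 3 lower and 4 not called. Lcn2, an iron-scavenging protein of the acute phase, rose 64.3-fold, with 296, 679 and 339.6 at 4 h and 22159.6, 29886 and 32489 at 24 h (log2 change 6.08, SE 0.269, adjusted p = 3.49e-07), the second largest log2 change, after Tenm4, among all genes that met the rule for named genes. Its change under LPS alone was 4.07, and the rise with CBD was the larger (difference of log2 time changes 2.02, SE 0.513, adjusted p = 0.00871). Under LPS with DMF the change of Lcn2 was 6.79, and its difference from CBD did not pass the test (adjusted p = 0.261). Saa3, serum amyloid, gave 10856, 18604 and 10325 at 4 h and 27859.7, 55843 and 35278 at 24 h (log2 change 1.57, SE 0.269, adjusted p = 6.10e-04) against 1.59 under LPS alone. Ptgs2 (cyclooxygenase 2) fell by 0.62. Nos2, which makes nitric oxide, gave 1467, 4506 and 2159 at 4 h and 3119, 5009.9 and 1549 at 24 h, and its time change of 0.25 (adjusted p = 0.637) compares with 1.85 under LPS alone, although the difference itself did not pass the test (adjusted p = 0.113).

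NF-kB subunits and their feedback inhibitors had 3 of 16 tested members higher, 6 lower and 7 not called, beside 63.2% called over all tested genes. Rela and Nfkb1, the classical subunits, had log2 changes of 0.05 and -0.12, and neither passed the test. Nfkbid, a nuclear inhibitor of the family, fell, with 2195, 1854 and 1712 at 4 h and 756, 653 and 614 at 24 h (log2 change -1.51, SE 0.110, adjusted p = 3.19e-06), Nfkb2 fell by 0.79 and Bcl3, another nuclear member, rose by 0.96.

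Interferon-induced genes mostly did not pass the test over time, with 4 of 24 tested members higher, 1 lower and 19 not called and a median of 0.13, whereas under LPS alone the median was -0.97. Rsad2 (viperin, an antiviral enzyme) gave 2021, 5437 and 3797 at 4 h and 7069, 15598 and 6945 at 24 h (log2 change 1.399, SE 0.371, adjusted p = 0.00808), Irf7, the regulator of type I interferon, 1704, 4569 and 2759 at 4 h and 6167, 10335 and 4923 at 24 h (log2 change 1.29, SE 0.340, adjusted p = 0.00783) and Oas1a 953, 1627 and 1283 at 4 h and 2638, 3554 and 2572 at 24 h (log2 change 1.20, SE 0.184, adjusted p = 2.98e-04). Ifit1 gave 2178, 5792 and 4323 at 4 h and 2340.4, 5191 and 1909 at 24 h, with no call over time (adjusted p = 0.387). These genes varied between replicates: the 25 listed genes took 0.131, 0.287 and 0.213% of reads at 4 h and 0.250, 0.456 and 0.216% at 24 h, with replicate 2 the highest at both times. In 9 of 24 members the time change was more positive than under LPS alone and in none more negative, with Rsad2 (difference of log2 time changes 2.84, SE 0.479, adjusted p = 5.72e-04) and Ifit1 (difference of log2 time changes 2.02, SE 0.527, adjusted p = 0.00997) among them. Rsad2, Irf7 and Oas1a kept their time call on leaving out any 1 library. Isg15, also called higher, lost its call in 2 of 15 alternatives, and Irgm1, the member called lower, in 6 of 15. DESeq2 was among these alternatives for both. The letters TTTC, 2 bases, TTTC of the interferon-stimulated response element were in 12 of 22 windows (54.5%) and 2.98% of all windows. Of the genes for antigen presentation, there were 5 of 14 tested members higher, 1 lower and 8 not called. Cd86, a costimulatory ligand, rose, with 387, 631 and 489.7 at 4 h and 1377, 1839.9 and 1635 at 24 h (log2 change 1.70, SE 0.168, adjusted p = 1.76e-05) and Nlrc5, an activator of class I genes, by 1.16, while H2-K1 had a log2 change of -0.12 (adjusted p = 0.428).

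**Figure D2:**
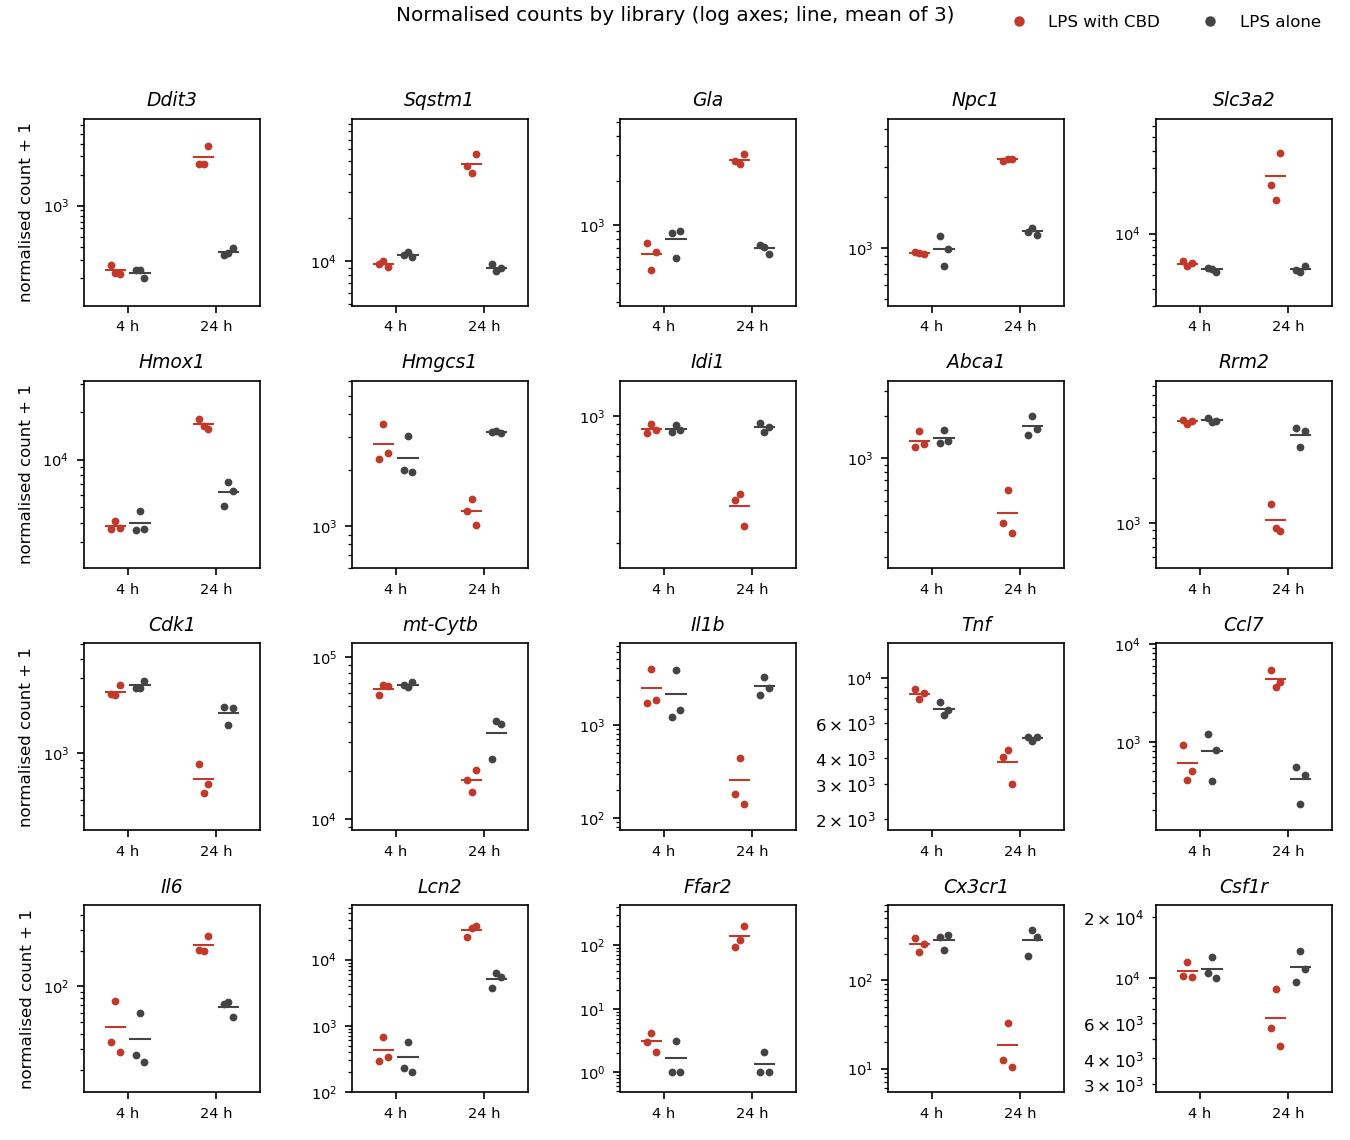
Normalised counts plus 1 of 20 genes (log axes) in each library at 4 h and 24 h with LPS and CBD (red) and LPS alone (dark), scaled together; lines are means of 3. At 24 h every CBD library lies above every LPS-alone library for Ddit3, Gla, Npc1 and Ccl7, and below for Idi1, Rrm2, Cdk1 and Il1b.

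The cell cycle genes fell in the 24 h libraries almost without exception. All 21 mitosis genes were called lower, with a median of -1.55 against -0.38 under LPS alone, and all 21 time changes were more negative with CBD. Kif20a, a kinesin of cytokinesis, gave 1744, 1529 and 1757 at 4 h and 477, 367 and 341 at 24 h (log2 change -2.10, SE 0.125, adjusted p = 1.36e-06), Ccna2 (cyclin A) 2436, 2096 and 2696 at 4 h and 779.8, 590.2 and 556 at 24 h (log2 change -1.92, SE 0.135, adjusted p = 2.64e-06), and Cdk1, the kinase that drives mitosis, 2398, 2357 and 2743 at 4 h and 855, 563 and 639.9 at 24 h (log2 change -1.88, SE 0.139, adjusted p = 3.31e-06). Mki67, the proliferation marker, fell 3.42-fold (log2 change -1.78, SE 0.107, adjusted p = 1.39e-06). No 24 h library overlapped a 4 h library in these 4 genes. Under LPS alone Cdk1 gave 2589.9, 2621 and 2899 at 4 h and 1957, 1505 and 1939.7 at 24 h, a change of -0.59 (difference of log2 time changes -1.28, SE 0.194, adjusted p = 2.60e-04). The 21 genes took 0.351% ± 0.0144 at 4 h and 0.123% ± 0.0205 at 24 h (SD, n = 3) of the counted reads.

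The Cdk1 promoter is shown for the 2 elements of late cell cycle promoters, CHR (TTTGAA) and CCAAT, both searched on either strand. CHR letters were in 7 of 18 windows of the list (38.9%) and 16.0% of all windows, and CCAAT in 16 of 18 (88.9%) and 33.8%. The Cdk1 stretch lies at chr10:69188773-69188992 on the minus strand of GRCm39, outside annotated exons and within the span of a transcript of the gene that starts further upstream, with 1 CHR match (71 to 66 bases before the start) and 3 CCAAT matches, read as ATTGG and not overlapping it, in capitals.
Cdk1: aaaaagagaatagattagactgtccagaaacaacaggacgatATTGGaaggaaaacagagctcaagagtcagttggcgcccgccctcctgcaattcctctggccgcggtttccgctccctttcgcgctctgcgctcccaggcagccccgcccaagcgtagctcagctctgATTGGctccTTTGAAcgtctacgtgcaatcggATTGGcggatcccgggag
All 15 members with CCAAT letters and all 7 with CHR letters were called lower, as were the members without them.

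DNA replication genes fell in 24 of 25 cases, with a median of -1.30 against -0.43 under LPS alone. The list median was -0.77 with the EtOH vehicle and -0.95 with LPS and DMF. Differences of the CBD time change were called for 13 of 25 members against EtOH and 8 of 25 against DMF. Rrm2, the regulated subunit of ribonucleotide reductase, gave 4835, 4582 and 4807 at 4 h and 1358, 942 and 892 at 24 h, a 4.46-fold fall (log2 change -2.18, SE 0.138, adjusted p = 1.67e-06), and Uhrf1, which maintains DNA methylation, 3053, 2899 and 2777 at 4 h and 1026, 857 and 841 at 24 h (log2 change -1.68, SE 0.0894, adjusted p = 8.41e-07). Mcm5, part of the replicative helicase, gave 5257, 4916 and 5226 at 4 h and 2131, 1498 and 1519.9 at 24 h (log2 change -1.60, SE 0.125, adjusted p = 4.33e-06), and the other 5 subunits Mcm2, Mcm3, Mcm4, Mcm6 and Mcm7 fell by 1.21 to 1.56 on the log2 scale. Cdt1, which loads that helicase, was the member not called, at 1653 at 4 h and 1564 at 24 h. In 21 of 25 members the time change was more negative than under LPS alone; for Rrm2 the LPS-alone libraries gave 4967, 4619 and 4689.9 at 4 h and 4228, 3189 and 4080.3 at 24 h (difference of log2 time changes -1.85, SE 0.193, adjusted p = 1.85e-05).

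E2F letters (TTTCGCGC or TTTGGCGC) were found in 5 of 25 windows of this list (20%) and 0.654% of all windows. The Mcm5 stretch lies at chr8:75835887-75836136 on the plus strand of GRCm39, with 2 matches on opposite strands that overlap each other, 153 to 142 bases before the start, in capitals.
Mcm5: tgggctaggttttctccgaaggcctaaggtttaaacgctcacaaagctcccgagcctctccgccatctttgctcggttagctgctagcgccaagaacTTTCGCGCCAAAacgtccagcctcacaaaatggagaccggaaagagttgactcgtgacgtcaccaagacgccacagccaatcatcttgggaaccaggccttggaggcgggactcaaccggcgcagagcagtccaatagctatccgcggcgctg
The other members with E2F letters were Mcm6, Pola1, Rfc3 and Uhrf1, all called lower, as was every member of the list except Cdt1.

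Of the G1 regulators, there were 3 of 15 tested members higher, 11 lower and 1 not called, with a median of -0.86 against 0.10 under LPS alone. The D-type cyclins Ccnd1, Ccnd2 and Ccnd3, which couple growth signals to division, fell by 1.38, 1.23 and 0.95, with Ccnd1 at 8237, 7750.2 and 8083 at 4 h and 4114, 3151 and 2250.0 at 24 h. E2f8, a repressor, and Ccne2 (cyclin E2) fell by 1.86 and 1.81, while the inhibitor Cdkn2d and E2f2 rose by 0.73 and 0.85. Cdkn1a (p21), the p53-induced inhibitor, gave 8153, 9536 and 10053 at 4 h and 7045, 8260.2 and 6022 at 24 h, with libraries that overlapped between the times; its call (log2 change -0.39, SE 0.121, adjusted p = 0.0187) was lost on leaving out any 1 of 4 libraries, 24 h replicates 1 and 3 and 4 h replicates 2 and 3. The wider list of p53 targets and apoptosis genes had 7 of 19 tested members higher, 5 lower and 7 not called, at the background of 63.2% called. Bbc3 (PUMA), which promotes apoptosis, and Gdf15, a secreted stress factor, rose by 1.505 and 1.92, and Bcl2l11 (BIM), likewise proapoptotic, fell by 1.53.

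Ribosome biogenesis had 0 of 19 tested members higher, 18 lower and 1 not called with a median of -0.84, against -0.65 under LPS alone, and 4 of 19 differences were called. Bop1, Polr1b (a subunit of RNA polymerase I) and Nolc1 fell by 1.35, 1.27 and 1.18, with Bop1 at 6670.4, 6538 and 6549.5 at 4 h and 2723, 2548 and 2473 at 24 h. Of the 13 mitochondrially encoded respiratory genes 11 were tested, 9 were lower and none higher, with a median of -0.99. The cytochrome b gene mt-Cytb gave 59683, 68246 and 67335 at 4 h and 17610.2, 14967 and 20229.6 at 24 h, a 3.70-fold fall (log2 change -1.89, SE 0.122, adjusted p = 1.79e-06), and mt-Nd1 of complex I 44684, 46079 and 47917 at 4 h and 15066, 10839 and 17183 at 24 h (log2 change -1.71, SE 0.150, adjusted p = 8.72e-06). By contrast mt-Co1, of complex IV, gave 157044, 184459.9 and 190569 at 4 h and 164099, 154997 and 138163 at 24 h (log2 change -0.22, adjusted p = 0.215). Poly(A)-selected libraries and reads shared with nuclear copies limit what these counts say of mitochondrial RNA. Nuclear-encoded respiratory genes had 0 of 19 tested members higher, 11 lower and 8 not called with a median of -0.21, and Atp5f1a of the ATP synthase fell by 0.66. The counts of this list and of glycolysis are to be read beside 63.2% of all tested genes called, 31.6% in each direction. In glycolysis, there were 2 of 15 tested members higher, 7 lower and 6 not called: Ldha (lactate dehydrogenase) gave 59524, 67744 and 63610.2 at 4 h and 41111, 36384 and 28043 at 24 h (log2 change -0.87, SE 0.142, adjusted p = 4.52e-04), Slc16a3, the lactate exporter, fell by 0.83 and Pfkfb3, a glycolytic activator, rose by 0.68.

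**Figure D3:**
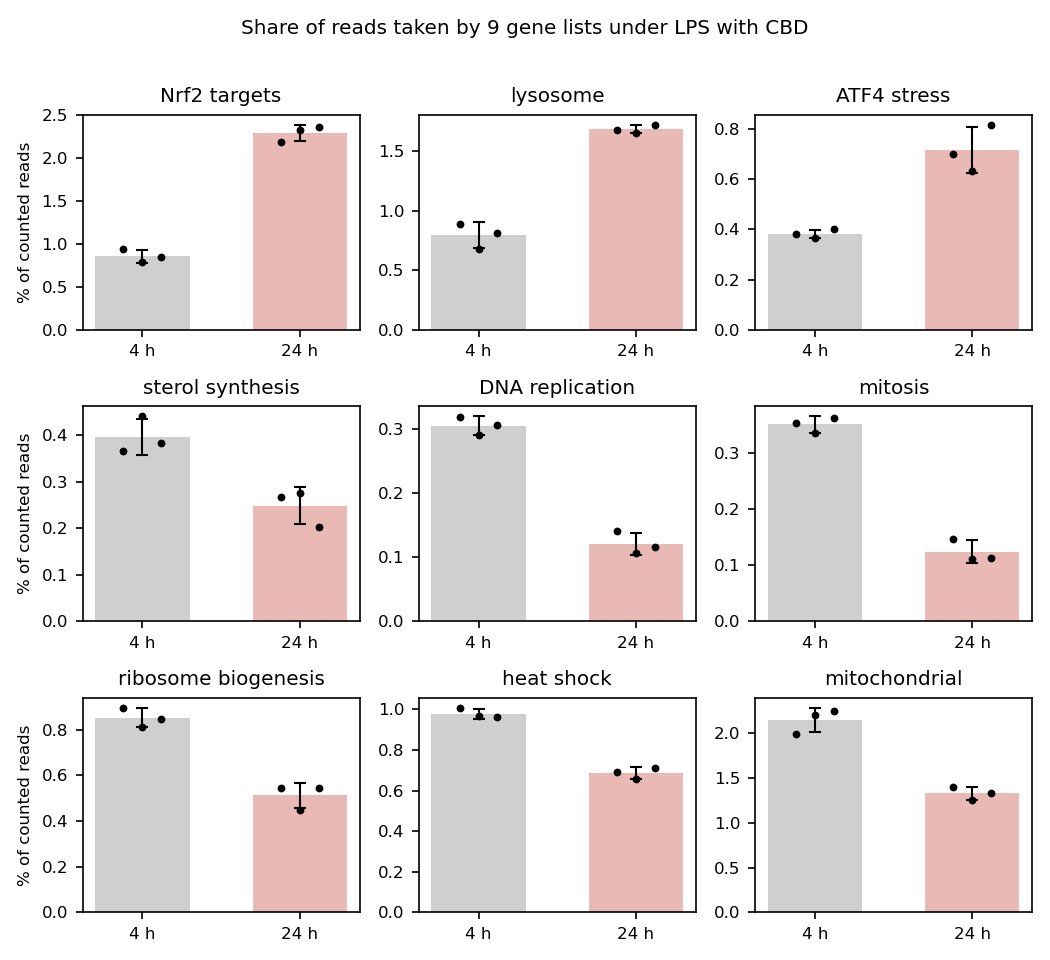
Percent of counted reads (vertical axes from 0) taken by the members of 9 gene lists in each LPS with CBD library (points), with the mean of 3 as a bar and the SD as a whisker, at 4 h and 24 h. The Nrf2, lysosome and ATF4 lists take more reads at 24 h and the other 6 lists fewer.

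Immediate early and related factors had 10 of 20 tested members higher, 7 lower and 3 not called. Klf2 and Klf4, related transcription factors, rose, with 114, 190.3 and 169.8 at 4 h and 710.4, 893 and 638 at 24 h for Klf2 and 81.2, 99.9 and 124 at 4 h and 395, 417 and 493 at 24 h for Klf4 (log2 change 2.25, SE 0.193, adjusted p = 7.45e-06 for Klf2). Dusp1, a phosphatase that turns off MAP kinases, gave 142, 256 and 157 at 4 h and 511, 700.1 and 695 at 24 h (log2 change 1.81, SE 0.214, adjusted p = 5.57e-05), while Fos, a partner of Jun, fell by 0.53 and Jun rose by 0.83. Klf2 and Klf4 had more positive time changes than under LPS alone (difference of log2 time changes 1.70, SE 0.249, adjusted p = 2.13e-04 for Klf4), and Dusp1 did not pass that test (adjusted p = 0.0626).

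The surface receptors of microglia are to be read beside 63.2% of all tested genes called, 31.6% in each direction. Among Fc, scavenger and phagocytic receptors, there were 6 of 14 tested members higher, 4 lower and 4 not called. Fcgr4 and Fcgr2b, receptors for antibody, rose by 1.90 and 1.46, with Fcgr4 at 108, 260.5 and 163 at 4 h and 571, 816 and 518 at 24 h, and under LPS alone their time changes were 1.24 and 1.36. Trem1, an amplifier of inflammatory signals, fell, with 727, 1012 and 735 at 4 h and 184, 298 and 104 at 24 h (log2 change -2.18, SE 0.312, adjusted p = 1.89e-04), and Cd14, the LPS co-receptor, fell as well, with 23972, 25095 and 25547 at 4 h and 12112, 14353 and 12907 at 24 h (log2 change -0.93, SE 0.0876, adjusted p = 1.37e-05). Cx3cr1, the receptor by which microglia sense neuronal fractalkine, fell 14.5-fold, with 302, 212 and 258 at 4 h and 11.6, 32.3 and 9.36 at 24 h (log2 change -3.97, SE 0.384, adjusted p = 1.57e-05), while under LPS alone it stood at 305, 217 and 322 at 4 h and 186, 366 and 306 at 24 h (difference of log2 time changes -3.95, SE 0.510, adjusted p = 8.96e-05). Its ligand gene Cx3cl1 fell too, with 613, 1265 and 691 at 4 h and 115, 102 and 95.3 at 24 h (log2 change -2.96, SE 0.233, adjusted p = 4.69e-06), replicate 2 being the highest at 4 h. Csf1r gave 10354, 12127 and 10215 at 4 h and 5739, 8922 and 4623 at 24 h (log2 change -0.81, SE 0.198, adjusted p = 0.00509), Spi1 (PU.1, the lineage factor of myeloid cells) fell by 0.86 and Cd68, a lysosomal glycoprotein of macrophages, rose by 1.22. Over the whole identity list there were 4 of 14 tested members higher, 3 lower and 7 not called. Ptprc, Tyrobp and Trem2 were among those not called, with log2 changes of 0.03, -0.02 and 0.25.

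Beside Lcn2, the 11 largest rises by log2 change among called protein-coding genes with a mean of at least 100 at the higher time and no overlap were in genes with 4 h values below 50. Tenm4, a teneurin adhesion protein, had 6 reads over the 3 libraries at 4 h and 1400 at 24 h, or 2.03, 2.13 and 2.18 at 4 h and 363, 302 and 619.5 at 24 h in normalised counts (log2 change 7.04, SE 0.285, adjusted p = 2.40e-07). Ffar2, a receptor for short-chain fatty acids, likewise went from 6 reads to 462 (log2 change 5.49, SE 0.382, adjusted p = 2.53e-06), and Avil, an actin-binding protein, gave 12.2, 18.1 and 9.79 at 4 h and 569, 416 and 938 at 24 h (log2 change 5.44, SE 0.303, adjusted p = 1.04e-06). The other named rises were Car6, Phyhd1, P2rx3, Gbp8, Cd200r4, Angptl6, Col4a1 and F5, with log2 changes of 5.28, 5.05, 4.95, 4.71, 4.43, 4.36, 4.31 and 4.26. Car6 is a secreted carbonic anhydrase, P2rx3 an ATP-gated channel known from sensory neurons, Col4a1 a basement membrane collagen and F5 coagulation factor V. Fold changes of genes so low at 4 h rest on few reads and are understated by the pseudocount.

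Among genes that met the same rule, with a mean of at least 100 at the higher time, the largest falls included Cx3cr1, Il1b and Cx3cl1. Beside these were Atp2b4, a calcium pump of the plasma membrane, with 94.4, 147 and 118 at 4 h and 7.36, 4.62 and 5.96 at 24 h (log2 change -4.11, SE 0.272, adjusted p = 1.99e-06), and Asb2, a ubiquitin ligase subunit, with 145, 179 and 184 at 4 h and 26.3, 20.3 and 6.81 at 24 h (log2 change -3.35, SE 0.401, adjusted p = 6.06e-05). Nkx1-1, Myh7b, Tnnt2, Igfbp4, Dmpk, Tmem238 and Car2 followed, with log2 changes of -3.09 to -2.43. Myh7b, Tnnt2 and Dmpk are best known from muscle, as a myosin, a troponin and a kinase, yet had means of 352 at 4 h and 51.2 at 24 h, 313 at 4 h and 49.1 at 24 h and 954 at 4 h and 156 at 24 h in this line. Igfbp4, a binding protein of insulin-like growth factors, gave 2415, 2854 and 2675 at 4 h and 558, 436 and 346 at 24 h.

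Set against LPS alone, the time course with CBD differed for about as many genes in each direction. Of 11959 genes, 3816 differed in their time change (31.9%; limma interaction over 12 libraries), 1848 more positive (15.5%) and 1968 more negative (16.5%) with CBD. Across the 11667 genes of the main comparison, which are not independent replicates, the changes with and without CBD had a Pearson r of 0.585 and a Spearman rho of 0.611, from libraries that are not shared. Of the 7371 genes that changed with CBD, 82.0% had an LPS-alone change of the same sign and 41.4% differed from LPS alone. Of the 3690 genes higher at 24 h, 1490 were also more positive than under LPS alone and 89 more negative, and of the 3681 lower ones, 1438 were more negative and 32 more positive. The genes called different with changes of opposite sign numbered 1662.

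**Figure D4:**
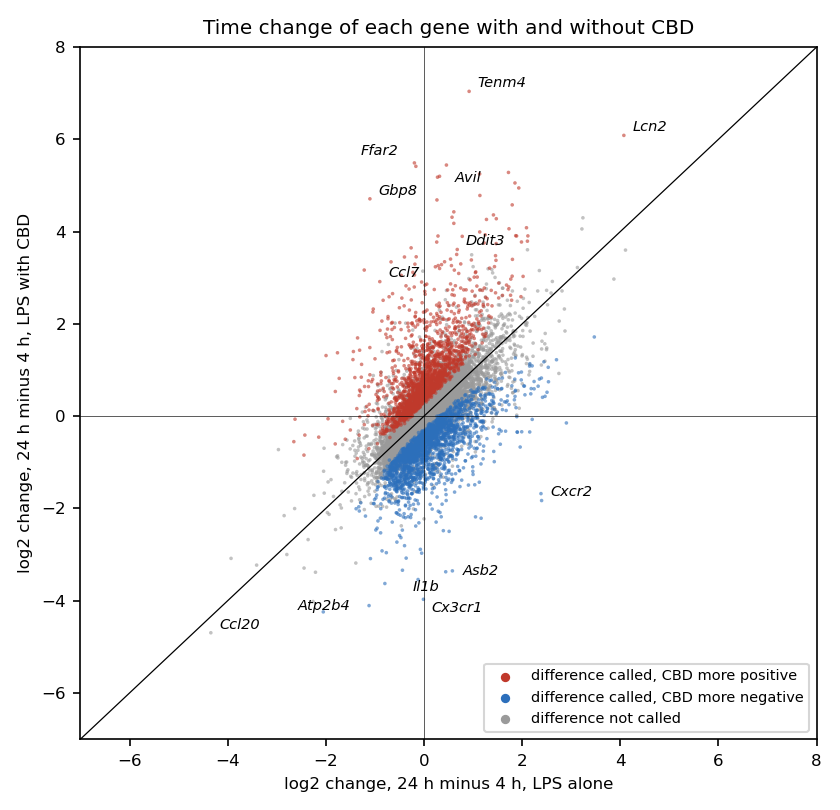
Log2 change from 4 h to 24 h of each gene under LPS with CBD (vertical axis) against LPS alone (horizontal axis), with equal change on the diagonal. Coloured genes passed the test of a difference; Tenm4, Ffar2, Avil and Gbp8 lie far above the diagonal, Cxcr2, Cx3cr1, Asb2 and Il1b far below, and Ccl20 on it.

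The genes that differed most from LPS alone overlapped the largest changes. Tenm4, Gbp8, Ffar2 and Avil had the most positive differences, at 6.12, 5.81, 5.68 and 4.99, followed by Serpinb9b, a protease inhibitor, which gave 23.3, 8.51 and 16.3 at 4 h and 131, 122 and 177 at 24 h with CBD and 20.04, 14.6 and 27.5 at 4 h and 6.59, 5.28 and 14.6 at 24 h with LPS alone (difference of log2 time changes 4.39, SE 0.559, adjusted p = 8.18e-05), and by Stra6l (difference of log2 time changes 3.91, SE 0.416, adjusted p = 2.17e-05). The most negative difference was that of Cxcr2, a chemokine receptor, which gave 76.1, 321 and 124 at 4 h and 41.0, 59.1 and 26.4 at 24 h with CBD and 54.9, 282 and 89.9 at 4 h and 571, 661 and 553 at 24 h with LPS alone (difference of log2 time changes -4.22, SE 0.761, adjusted p = 9.32e-04). The time change was -1.83 with CBD and 2.40 with LPS alone. Cx3cr1, Asb2, Il1b, Atp2b4 and Trem1 followed, at -3.95, -3.93, -3.81, -2.98 and -2.53. Under LPS with DMF Gbp8 rose by 3.80, and its difference from CBD did not pass the test (adjusted p = 0.308). For the other genes of this ranking the difference from DMF was called. Gbp8, Cd200r4, Serpinb9b and the Oas, Ifit and H2 genes belong to families of similar sequence, so that their counts are uncertain.

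The vehicle and DMF give further scale. Against the EtOH vehicle, in which cells spent the same time in low serum without LPS, 4097 of 12120 time changes differed (33.8%), and against LPS with DMF 3355 of 12035 (27.9%). The DMF differences split into 1696 more positive and 1659 more negative, or 1361 and 1988 with scaling by total reads. The r across genes was 0.574 with EtOH and 0.589 with DMF (rho 0.638 and 0.635). For the lysosome list 18 of 22 time changes differed from EtOH and 19 of 22 from DMF, where the list medians were -0.07 and -0.01. In the mitosis list 21 of 21 differed from EtOH, but 3 of 21 from DMF, where the median was -1.38. Sterol synthesis likewise had a median of -0.85 with DMF and 4 of 23 differences, against 0.24 and 20 of 23 with EtOH. In the Nrf2 list the median was -0.65 with DMF, and 20 of 24 differences were called. List medians are changes from 4 h to 24 h and give no level at either time. The study reported that DMF, relative to LPS alone, raised most genes of this pathway early, and fewer of them and less strongly late. Whether levels differed between DMF and the other treatments at a single time was not tested here.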

How the data were processed

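RNA-seq of polyadenylated RNA was measured in BV-2 cells, in 3 libraries per group. Per the labels and the study's methods, the authors trimmed reads with cutadapt 4.4 and Trimmomatic 0.39, aligned them to GRCm39 with HISAT2 2.2.1, counted reads per Ensembl gene with HTSeq 2.0.3 (the strand setting is not given in the sources used here) and divided counts by DESeq2 1.40.2 size factors. The deposited values are therefore a signal of normalised counts, 1 table per pair of groups, beside columns of the authors' own fold changes, standard errors, test statistics and p-values, which were not used. All 419302 values came out as whole reads within 0.01 of a read after rescaling, which gave the depth of each library and a common scaling over tables.

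Genes with at least 10 in 3 libraries were tested with limma 3.58.1 (R 4.3.3, lmFit and eBayes with trend) on log2(value + 1), two-sided, Benjamini-Hochberg adjusted over all tested genes with a threshold of 0.05. Differences between time changes were interaction terms over 12 libraries, on recovered reads with joint median-of-ratios factors. Log2 changes are on that scale and understate the change of low genes. edgeR 4.0.16 and DESeq2 1.42.0 on recovered reads, other filters, pseudocounts and scalings, a replicate block and leaving out each library were alternatives. The fits were tested on simulated data.

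The text names the 12 largest rises and 12 largest falls among called protein-coding genes with a mean of 100 or more in the higher group and libraries that did not overlap, the 6 most positive and 6 most negative differences from LPS alone under the like rule, and up to 6 called members per list with the largest changes; list members with values and no call, further called members, and those with motif matches were named after their values were seen. Some list members are not reported here by name. The lists and the comparison were chosen with earlier results of these data known. Promoters are the 250 bases before the start in the RefSeq table of build GRCm38.p6, placed in GRCm39 by exact match; 352 of 481 list members had one. The study speaks of independent experiments, but the labels tie no library to one, so p-values measure the spread between these samples. For some genes, such as Cxcr2 and Il1b, same-numbered libraries with and without CBD ranked alike at 4 h. No fit used the number as a block across treatments, so a part shared between treatments was not tested.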

Additional observations from a re-analysis of the deposited data

Results flagged for a closer look

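The following values were singled out because the time change under LPS with CBD was tested against the time change under another treatment and the difference passed. Such genes numbered 3816 against LPS alone, 4097 against the EtOH vehicle and 3355 against LPS with DMF. These 3 comparisons share the 6 CBD libraries, so they are not independent of each other.

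Of the single genes, Tenm4 had the most positive difference from LPS alone among those meeting the rule for named genes, 6.12 on the log2 scale, followed by Gbp8 with 5.81, Ffar2 with 5.68, Avil with 4.99, Serpinb9b with 4.39 and Stra6l with 3.91. The most negative was Cxcr2 with -4.22, followed by Cx3cr1 with -3.95, Asb2 with -3.93, Il1b with -3.81, Atp2b4 with -2.98 and Trem1 with -2.53. For Tenm4 and Ffar2 the 4 h libraries held 6 reads each in all, so their sizes depend on the pseudocount.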

How the results depend on the processing

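The count of 7371 changed genes was 7353 with edgeR, 7101 with DESeq2, 7300 with total-read scaling and 6559 to 6892 on leaving out 1 library. Differences from LPS alone (3816) ranged from 3008 to 3995 on leaving out 1 library, those from EtOH from 3372 to 4041 and those from DMF from 2716 to 3597. Requiring an absolute log2 change above 1 left 2057 changed genes and 1126, 1157 and 1232 differences from LPS alone, EtOH and DMF. With total-read scaling the DMF differences split into 1361 more positive and 1988 more negative, against 1696 and 1659; the cause was not tested. List medians moved by more than the replicate spread in 3 of 240 refits, to 0.62 for cytokines and 0.90 for the Nrf2 list with a mean of at least 50, and to -0.79 for mitochondrially encoded genes with a pseudocount of 5. None of the 36 named values lost its call or its direction in 582 refits. They were picked as the largest called changes, so refits of the same libraries could hardly have overturned them. Of 310 called list members 271 kept their call under every alternative run and 39 lost it somewhere, and of 215 differences from LPS alone 170 kept it and 45 lost it. Same-numbered deviations of the CBD libraries correlated at 0.172, 0.455 and 0.0345, and 24 h replicate 3 correlated best with 4 h replicate 1 (0.314), so the numbers were not taken as pairs; with LPS alone the correlations were 0.157, 0.288 and 0.151. With a replicate block 7663 genes changed, and 4263, 4504 and 3755 differed from LPS alone, EtOH and DMF. Genes with few reads at 4 h are limited by depth, and 3 libraries per group limit the precision of every value.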

Other observations

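Other lists differed between treatments in their median time change. The interferon response list had a median of 0.13 with CBD, -0.97 with LPS alone, 0.02 with EtOH and 1.36 with DMF, and 12 of its 24 tested members differed between CBD and DMF. Glycolysis genes had a median of -0.37 with CBD, 0.24 with LPS alone and 0.74 with EtOH, and all 15 differed between CBD and EtOH. Immediate early factors had medians of 0.32 with CBD, 0.27 with LPS alone, 1.09 with EtOH and 0.79 with DMF. Cytokines and chemokines had medians of 0.18 with CBD and 1.599 with DMF, with 9 of 20 differences called. All these medians are changes from 4 h to 24 h and give no level at either time. The study reported that DMF, relative to LPS alone, lowered proinflammatory genes early and that this was not kept late. Differences in level between treatments at a single time were not tested here.

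The endoplasmic reticulum stress element (CCAAT, 9 bases, CCACG) was found before the start of 8 of 17 chaperone members with a promoter, or 47.1% of their windows, against 0.113% of all windows. Of those 8 members only Hspa5 was called higher over time, and Calr, Canx, Creld2, Dnajc3, Hsp90b1, Pdia6 and Syvn1 were not called. The metal response element (TGCACNC or TGCGCNC) was in 42.9% of windows of the metallothionein and zinc list, those of Mt1, Mt2 and Slc30a1, and in 21.4% of all windows.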
